A study of Xenopus laevis with 15 samples.

Results

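The genes mycl and mycbp were followed in whole Xenopus laevis embryos exposed to the retinoid receptor compound NRX204647. They are 2 of the 45099 gene models in the deposited table, found there by symbol as Xelaev18004069m.g (mycl) and Xelaev18003208m.g (mycbp). Both were chosen on their response in these same libraries, so their levels and fold changes are given as a description and with no test. The transcript of mycl was lower at each dose, with 9.90 ± 1.15 FPKM in vehicle embryos, 5.27 ± 0.725 FPKM at 10 nM and 2.62 ± 0.774 FPKM at 1 µM (SD, n = 5 each). The transcript of mycbp had 0.811 ± 0.420 FPKM in vehicle embryos, 1.40 ± 1.19 FPKM at 10 nM and 3.78 ± 0.821 FPKM at 1 µM (SD, n = 5 each). FPKM is a level per length of transcript, so the levels of these genes are set side by side below as deposited. A bias particular to a gene, such as in amplification, would remain in them and was not measured.

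Myc proteins are basic helix-loop-helix leucine zipper transcription factors that bind E-box DNA together with their partner Max. They promote transcription of genes for cell growth, ribosome production and cell division, while the Mxd proteins compete with them for Max and repress such genes. In vertebrates the family holds c-Myc, N-Myc and L-Myc, and mycl encodes L-Myc. The product of mycbp, known in human as AMY-1, is a small protein that binds the amino-terminal part of c-Myc and also associates with anchoring proteins of protein kinase A. Its name comes from that binding, and it is not itself a member of the Myc family.

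The embryos came from in vitro fertilization, and the labels call the replicates single-clutch. The vehicle group received 0.1% ethanol, another group 10 nM NRX204647, a dose that the labels call selective for retinoic acid receptor gamma, and a last group 1 µM, which the labels say activates the alpha, beta and gamma receptors. Exposure ran from stage 6, when the embryo is a ball of dividing cells, to stage 18, a neurula. Dishes held 25 embryos and were harvested as 5 aliquots of 5 embryos, each aliquot being a replicate. The labels describe no further dish for a dose, so treatment and dish cannot be told apart, and p-values measure the spread between aliquots. Because RNA came from whole embryos, fewer cells expressing a gene and less of its RNA per cell cannot be told apart either.

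The FPKM values move in small steps, which give the depth of each library relative to the deepest, 1 µM replicate 2. The shallowest, 10 nM replicate 2, had 0.259 of that depth. Group means of this depth were 0.535 ± 0.259 in vehicle libraries, 0.455 ± 0.143 at 10 nM and 0.839 ± 0.189 at 1 µM (SD, n = 5 each). Of 35 marker symbols for 9 tissues the table listed 4, and 5 tissues had none. The neural gene sox2 spanned 2.06 to 4.64 FPKM in vehicle libraries, 0 to 1.86 at 10 nM and 0.743 to 2.40 at 1 µM. The epidermal gene grhl3 spanned 17.3 to 20.8, 22.4 to 24.9 and 13.3 to 16.3 FPKM in the same order of dose. The muscle receptor gene chrnd spanned 6.44 to 10.9, 6.40 to 7.51 and 2.49 to 4.10 FPKM, and the neural crest gene sox9 spanned 2.09 to 3.11, 1.25 to 2.87 and 5.09 to 6.74 FPKM. Each of these 4 tissues is thus represented by 1 gene. Marker ranges were separate between some doses and, for sox2, chrnd and sox9, overlapped between others. Over all gene models averaging 1 FPKM or more, 14.0% did not overlap for 10 nM against vehicle. The share was 32.1% for 1 µM against vehicle and 18.5% for 1 µM against 10 nM. The part of these tissues in the levels of mycl or mycbp was not tested.

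In vehicle libraries the mycl level was 11.0, 8.85, 11.0, 10.0 and 8.59 FPKM in replicates 1 to 5. At 10 nM it was 6.23, 4.67, 4.68, 4.89 and 5.86 FPKM. At 1 µM it was 3.06, 2.04, 3.31, 1.56 and 3.13 FPKM. The groups did not overlap at any step, so that every library at 10 nM lay below every vehicle library and every library at 1 µM lay below both. The space between the nearest libraries was 2.36 FPKM for 10 nM against vehicle, 5.28 FPKM for 1 µM against vehicle and 1.37 FPKM for 1 µM against 10 nM.

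As a ratio of means, mycl at 10 nM stood at 0.532 of its vehicle level and at 1 µM at 0.265, which is 3.78-fold lower. The further step gave 0.497 of the 10 nM level at 1 µM. On the log2(FPKM + 1) scale, which understates the change of low genes, the difference was -0.80 ± 0.14 for 10 nM against vehicle, -1.61 ± 0.14 for 1 µM against vehicle and -0.81 ± 0.14 for 1 µM against 10 nM (SE, n = 5 per group). The first and last of these values are close to each other, so each increase of dose went with a similar log2 difference. The median over all 13192 gene models averaging 1 FPKM or more was 0.01, 0.09 and 0.08 in the same comparisons. Counted from the most negative difference among these gene models, mycl ranked 188 for 10 nM against vehicle, 69 for 1 µM against vehicle and 239 for 1 µM against 10 nM. Among the 314 that carry a gene name it ranked 4, 2 and 3. Since mycl and mycbp were chosen on these contrasts, the ranks given for either only describe its place and lend no support.

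Many gene models differed between these groups. With limma and a Benjamini-Hochberg adjusted p under 0.05, 23.3% of the tested gene models passed for 10 nM against vehicle, 45.6% passed for 1 µM against vehicle and 23.8% passed for 1 µM against 10 nM. The groups did not overlap for 14.0%, 32.1% and 18.5% of them. Both genes were chosen on these contrasts, so nothing is read from these shares about them.

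In vehicle libraries the mycbp level was 1.10, 1.26, 0.263, 0.489 and 0.943 FPKM in replicates 1 to 5. At 10 nM it was 0.769, 3.03, 0, 1.06 and 2.13 FPKM. At 1 µM it was 3.87, 4.46, 4.66, 2.75 and 3.16 FPKM. All libraries at 1 µM stood above all vehicle libraries, by at least 1.49 FPKM, while those at 10 nM were spread from the lowest value of all 15 libraries to a value above the lowest at 1 µM.

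**Figure D1:**
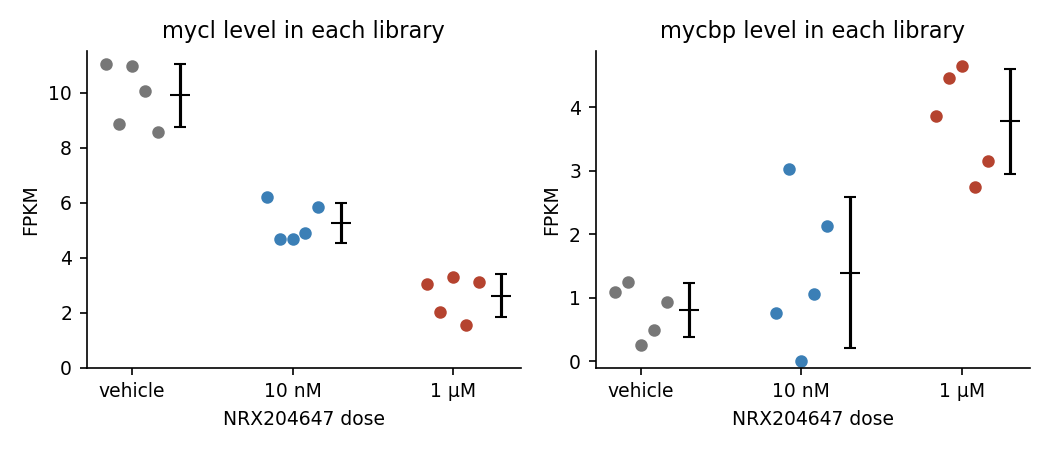
FPKM of mycl (left) and mycbp (right) in each of the 5 libraries (points) of vehicle, 10 nM and 1 µM NRX204647, with the mean and SD of each group beside them in black. The mycl groups are separate, from 9.90 in vehicle libraries to 2.62 FPKM at 1 µM, while mycbp libraries at 10 nM spread from 0 to 3.03 FPKM and overlap both of the other groups.

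The mean of mycbp at 1 µM was 4.66-fold its vehicle mean and 2.71-fold its mean at 10 nM. On the log2(FPKM + 1) scale the difference was 0.28 ± 0.29 for 10 nM against vehicle, 1.42 ± 0.29 for 1 µM against vehicle and 1.14 ± 0.29 for 1 µM against 10 nM (SE, n = 5 per group). Between 10 nM and vehicle the ratio of means was 1.72, but 10 of the 25 pairs of libraries had the lower value at 10 nM. These groups thus overlap, and whether their levels differ was not tested. Without 10 nM replicate 2 the difference of 10 nM against vehicle was 0.05 ± 0.27, and without 10 nM replicate 3 it was 0.56 ± 0.24 (SE). For 1 µM against 10 nM, 1 of the 25 pairs went the other way, since 10 nM replicate 2 (3.03 FPKM) exceeded 1 µM replicate 4 (2.75 FPKM). Counted from the most positive difference among 13192 gene models, mycbp ranked 2956 for 10 nM against vehicle, 408 for 1 µM against vehicle and 301 for 1 µM against 10 nM.

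Set against all 45099 gene models of the table, with no filter, the mycl level exceeded the mean of 95.8% of them in vehicle embryos, 91.8% at 10 nM and 83.8% at 1 µM. The mycbp level exceeded 68.6% in vehicle embryos, 76.5% at 10 nM and 87.9% at 1 µM. Only 36957 of these gene models had a value above 0 in any library, so such shares are raised by models without reads. The place of mycl in the table was thus above that of mycbp in vehicle embryos and at 10 nM, and below it at 1 µM.

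The order of mycl and mycbp within a library turned between the doses. The level of mycl was above that of mycbp in 5 of 5 vehicle libraries, by a ratio of 7.04 to 41.6. It was above in 5 of 5 libraries at 10 nM, where the 4 ratios that can be formed ran from 1.54 to 8.10. At 1 µM it was above in 0 of 5 libraries, with ratios of 0.791, 0.458, 0.710, 0.566 and 0.992 in replicates 1 to 5. In the last of these libraries the levels were nearly equal, at 3.13 FPKM for mycl and 3.16 FPKM for mycbp. The ratio of the mean levels was 12.2 in vehicle embryos, 3.77 at 10 nM and 0.693 at 1 µM. Scaling a library as a whole cannot turn the order of genes within it. A bias that is constant for a gene would shift the ratios at every dose alike. The dose at which the order turns depends on such a bias, while the fall of the ratio from vehicle to 1 µM does not. Where reads of either gene were split with its other genome copy, the measured ratio would differ from that of the gene pairs.

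**Figure D2:**
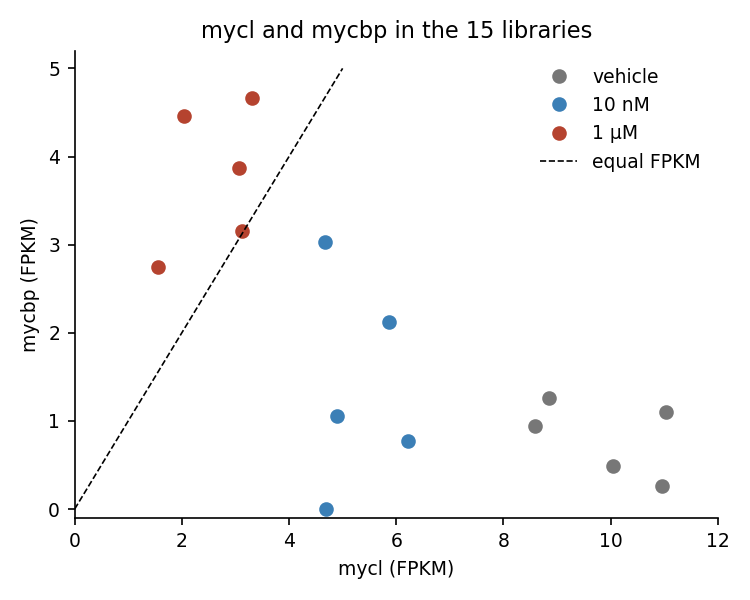
Level of mycbp against level of mycl, both in FPKM, in each of the 15 libraries (points coloured by dose), with a dashed line where the levels are equal. Vehicle and 10 nM libraries lie below the line and the 5 libraries at 1 µM lie above it, replicate 5 with a mycl to mycbp ratio of 0.992.

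The sum of the 2 levels was 10.7 ± 0.997 FPKM in vehicle embryos, 6.66 ± 1.36 FPKM at 10 nM and 6.40 ± 1.34 FPKM at 1 µM (SD, n = 5 each). The last of these means differ by less than the SD of either group. Relative to 10 nM, the lower mycl level and the higher mycbp level at 1 µM thus nearly offset each other in the sum. A bias particular to either gene would change that sum.

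The spread within groups was close to that of other genes for mycl and wider for mycbp. The SD of log2(FPKM + 1) around the group means was 0.231 for mycl, against a median of 0.204 over the 1536 gene models within 1.25-fold of its mean level, and 60.6% of those had a smaller SD. For mycbp it was 0.515, against a median of 0.207 over 2738 gene models of similar level, and 93.2% of those had a smaller SD. These gene models were matched on mean FPKM over the 15 libraries and not on read support. The mycbp mean used, 2.0 FPKM, lay above its vehicle and 10 nM means. How much of its wider spread is counting error was not tested. As a share of the group mean, the SD of mycl was 11.6% in vehicle libraries, 13.8% at 10 nM and 29.5% at 1 µM. That of mycbp was 51.8%, 85.2% and 21.7%.

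Within a gene model the FPKM values are multiples of a smallest step, which gives the read support of each value. The mycl levels rested on 73 to 213 read steps in vehicle libraries, 32 to 100 at 10 nM and 22 to 80 at 1 µM. The mycbp levels rested on 2 to 16 read steps in vehicle libraries, 0 to 28 at 10 nM and 30 to 91 at 1 µM. Only 1 of the 15 mycbp values is an odd number of steps (4 of 15 for mycl), so 1 read of mycbp may count as several steps and its true support may be smaller. The library listed at 0 for mycbp, 10 nM replicate 3, allows a level of up to 0.372 FPKM, which is what 3 steps are worth there, or up to 0.743 FPKM if a read is 2 steps. These limits cover counting error only, and amplified reads are not independent molecules.

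At the mean rate of its group, 10 nM replicate 3 would hold 10.8 steps of mycbp where 0 were found, and 10 nM replicate 2 would hold 7.06 where 16 were found. For mycl the same libraries held 49 steps against 56.6 and 32 against 37.0. In mycl these libraries had the lowest levels of the 10 nM group, at 4.67 FPKM in replicate 2 and 4.68 FPKM in replicate 3. The next level was close, at 4.89 FPKM in replicate 4.

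**Figure D3:**
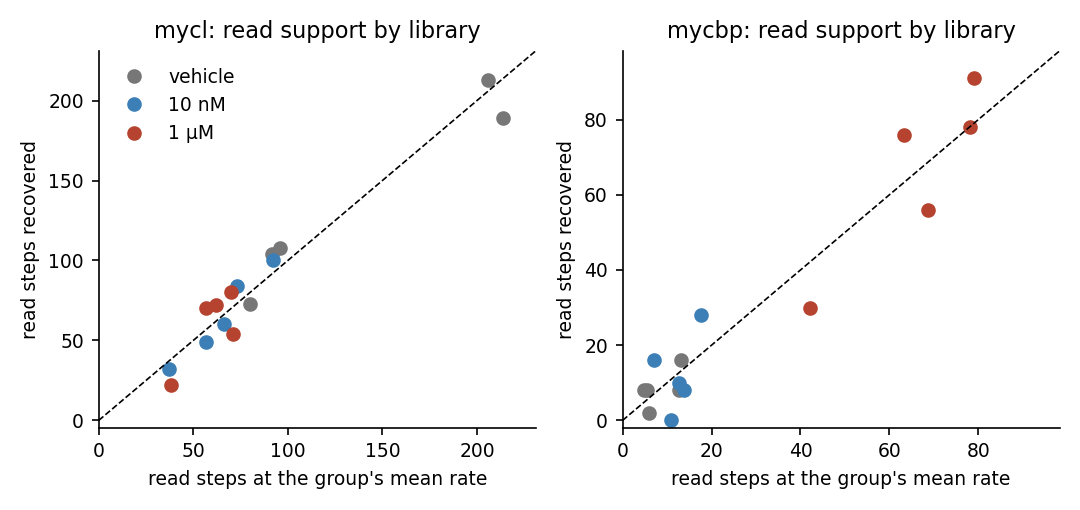
Read steps recovered in each library for mycl (left) and mycbp (right) against the steps that library would hold at its group's mean rate, with a dashed line of equality and colours for dose. The mycl points lie along the line, with departures at 1 µM such as 22 steps where 38.0 would lie on it and 70 where 56.9 would. At 10 nM the mycbp points include 0 steps where 10.8 would lie on the line and 16 where 7.06 would.

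Depth was under 0.4 of the deepest library's in 5 libraries (vehicle replicates 1, 2 and 3 and 10 nM replicates 2 and 3). Leaving them out kept only replicates 4 and 5 of vehicle and replicates 1, 4 and 5 of 10 nM. The mycl difference was then -0.63 ± 0.22 for 10 nM against vehicle, -1.54 ± 0.20 for 1 µM against vehicle and -0.90 ± 0.18 for 1 µM against 10 nM (SE). The mycbp difference was 0.40 ± 0.25, 1.47 ± 0.23 and 1.07 ± 0.20 (SE) in the same comparisons. In this setting an effect of depth and one of fewer libraries cannot be told apart.

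Reads were not strand-specific, so those of overlapping antisense genes would be counted alike. Xenopus laevis carries paired copies of many genes on its L and S subgenomes. The RefSeq annotation of the Xenopus_laevis_v10.1 assembly holds 2 protein-coding copies of mycl and 2 of mycbp, one on each subgenome, while the deposited table names 1 gene model for each. The table does not say which copy that is, and reads shared by near-identical copies may have been split. In that annotation mycl and mycbp lie on the same chromosome in both subgenomes, with 421 protein-coding genes between the L copies and 164 between the S copies.

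Other genes around Myc were examined with 4 lists of 143 symbols, of which the table names 6 including mycl and mycbp. The absence of a symbol says only that the table does not list it, since most gene models there carry no name. Of the Myc family and Max network (18 symbols) only mycl is listed, so the levels of c-Myc, N-Myc, Max and the Mxd genes are not reported here. None of the 13 symbols for MYCBP partners and protein kinase A anchoring is listed. Among the 4 other genes, 0 were higher and 1 was lower for 10 nM against vehicle, 0 were higher and 1 was lower for 1 µM against vehicle, and 0 passed for 1 µM against 10 nM. Over all gene models tested the shares that passed were 23.3%, 45.6% and 23.8%. With only 4 genes the counts cannot be told apart from these shares. Their median log2 difference was -0.14, -0.11 and 0.01 in these comparisons, beside 0.01, 0.09 and 0.08 over all gene models tested.

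The cofactor and turnover list gave cdk9 and huwe1. The kinase encoded by cdk9 releases paused RNA polymerase II and is recruited by Myc in human cells. Its level was 5.18 ± 2.08 FPKM in vehicle embryos, 4.27 ± 0.723 at 10 nM and 4.38 ± 1.07 at 1 µM (SD, n = 5 each), and it passed in no comparison (limma adjusted p = 0.554 for 10 nM against vehicle, 0.536 for 1 µM against vehicle and 0.965 for 1 µM against 10 nM). The ubiquitin ligase encoded by huwe1 marks Myc proteins among other targets in mammalian cells.

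In vehicle libraries huwe1 had 10.1, 10.1, 9.44, 9.53 and 10.1 FPKM, at 10 nM it had 9.45, 8.25, 7.38, 8.09 and 8.02 FPKM, and at 1 µM it had 10.3, 8.45, 10.0, 9.89 and 8.59 FPKM. It fell at 10 nM by a small amount, to 8.24 ± 0.757 FPKM against 9.86 ± 0.340 FPKM in vehicle embryos (log2 difference -0.24 ± 0.08, limma adjusted p = 0.0420), and 10 nM replicate 1 reached the range of the vehicle libraries. That call held under 13 of 26 alternatives, over which the adjusted p ran from 0.00161 to 0.395. It was lost without vehicle replicate 1, 2, 4 or 5, without 10 nM replicate 2, 3, 4 or 5, or without 1 µM replicate 3 (log2 differences from -0.25 to -0.20). It was also lost with no filter (limma adjusted p = 0.0584) and in a fit of only the groups compared (0.0667). The same held with the replicate number as a block (0.0559) and without the 5 shallow libraries (0.395). At 1 µM against vehicle the huwe1 difference was -0.06 ± 0.08 (limma adjusted p = 0.571), or -0.24 (adjusted p = 0.0139) after quantile normalization and -0.29 (adjusted p = 0.00574) when libraries were scaled to equal totals, leaving out the top gene model.

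The list of 81 known Myc target genes gave mcm7 and nop56. The product of mcm7 is a subunit of the replicative DNA helicase, and its transcript had 4.60, 3.09, 3.51, 2.79 and 2.79 FPKM at 1 µM, against 4.56, 4.92, 5.31, 4.78 and 3.80 FPKM in vehicle libraries. It fell at 1 µM, to 3.36 ± 0.756 FPKM against 4.67 ± 0.561 FPKM in vehicle embryos (log2 difference -0.39 ± 0.12, limma adjusted p = 0.0138). One library at 1 µM, replicate 1, lay within the vehicle range. The call held in 24 of 25 alternatives. It was lost without the 5 shallow libraries, and so with fewer vehicle libraries (-0.29, limma adjusted p = 0.231). At 10 nM mcm7 had 4.30 ± 0.655 FPKM, which did not pass against vehicle (limma adjusted p = 0.574). For 1 µM against 10 nM its difference was -0.29 ± 0.12 (limma adjusted p = 0.0897), and it passed without 1 µM replicate 1 (-0.39, adjusted p = 0.0180).

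The nucleolar protein encoded by nop56 is a core part of the particles that methylate ribosomal RNA. Its level was 22.0 ± 3.29 FPKM in vehicle embryos, 23.9 ± 4.75 at 10 nM and 23.8 ± 3.14 at 1 µM (SD, n = 5 each). It passed in no comparison, with a limma adjusted p of 0.650 for 10 nM against vehicle, 0.550 for 1 µM against vehicle and 0.967 for 1 µM against 10 nM. The group means of nop56 thus lay within their SDs of each other. Whether mcm7 or nop56 follows the level of mycl was not tested.

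The table names 1 gene of protein kinase A anchoring outside the list, akap2, which was added after the data had been seen. Its level was 0.771, 1.15, 0.986, 0.891 and 1.15 FPKM at 1 µM, against 1.95, 1.58, 1.54, 1.42 and 1.43 FPKM in vehicle libraries. It fell at 1 µM without overlap, to 0.990 ± 0.166 FPKM against 1.59 ± 0.217 FPKM in vehicle embryos (log2 difference -0.38 ± 0.10, limma adjusted p = 0.00531). Without the 5 shallow libraries, and so with fewer vehicle libraries, the difference was -0.29 (limma adjusted p = 0.0701). At 10 nM it had 1.24 ± 0.237 FPKM, and neither 10 nM against vehicle (limma adjusted p = 0.135) nor 1 µM against 10 nM (adjusted p = 0.239) passed. This direction at 1 µM is opposite to that of mycbp.

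Genes that lie next to mycl and mycbp in the RefSeq annotation were also looked up, after the data had been seen. The 3 protein-coding neighbours on each side of the 4 copies make 24 places, of which the table lists 7 different genes by symbol and 3 of these were abundant enough to test. The neighbours of mycl that are listed, ppt1, mfsd2a and hpcal4, had group means of at most 0.344 FPKM and were not tested. A neighbour of mycbp, rhbdl2, reached at most 0.0963 FPKM in any library.

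The tested neighbours all lie within 3 places of mycbp. The gene akirin1 encodes a small nuclear protein and lies 3 places from the L copy of mycbp. It is not listed under that symbol within 3 places of the S copy. It had 20.3, 18.3, 17.1, 14.3 and 15.8 FPKM at 1 µM, against 14.3, 12.3, 5.90, 7.99 and 8.66 FPKM in vehicle libraries. It rose at 1 µM to 17.2 ± 2.29 FPKM, against 9.85 ± 3.42 FPKM in vehicle embryos (log2 difference 0.79 ± 0.22, limma adjusted p = 0.00776), and this call held in 26 of 26 alternatives. At 10 nM akirin1 had 13.5 ± 4.01 FPKM, which did not pass against vehicle (0.43 ± 0.22, limma adjusted p = 0.166). The difference of 1 µM against 10 nM did not pass either (0.36 ± 0.22, limma adjusted p = 0.257). The akirin1 means therefore stood in the same order over the doses as those of mycbp, with a smaller fold at 1 µM.

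The other neighbours of mycbp did not share that order. The Rag GTPase gene rragc, whose product signals amino acid supply to the mTORC1 kinase, had 1.83 ± 0.411 FPKM in vehicle embryos, 1.48 ± 0.508 at 10 nM and 2.11 ± 0.212 at 1 µM. It passed in no comparison (limma adjusted p = 0.303 for 10 nM against vehicle, 0.413 for 1 µM against vehicle and 0.0802 for 1 µM against 10 nM), except for the last without 10 nM replicate 1 (0.43, adjusted p = 0.0329). The transcription factor gene pou3f1, which acts in neural development, had 1.93 ± 0.495 FPKM in vehicle embryos, 1.16 ± 0.444 at 10 nM and 1.74 ± 0.128 at 1 µM. It fell at 10 nM against vehicle (-0.45 ± 0.14, limma adjusted p = 0.0304), a call held in 15 of 25 alternatives and lost without vehicle replicate 2, 3 or 4 or 10 nM replicate 3 or 4 (log2 differences from -0.45 to -0.35). The pou3f1 call was also lost with no filter (limma adjusted p = 0.0694) and in a fit of only the groups compared (0.0783). So it was with the replicate number as a block (0.0622), by voom on recovered reads (0.069) and without the 5 shallow libraries (0.388). Its other comparisons did not pass (limma adjusted p = 0.661 for 1 µM against vehicle and 0.0690 for 1 µM against 10 nM), but the last did without vehicle replicate 3 (0.37, adjusted p = 0.0450), 10 nM replicate 1 (0.43, adjusted p = 0.0408) or 10 nM replicate 5 (0.44, adjusted p = 0.0407).

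**Figure D4:**
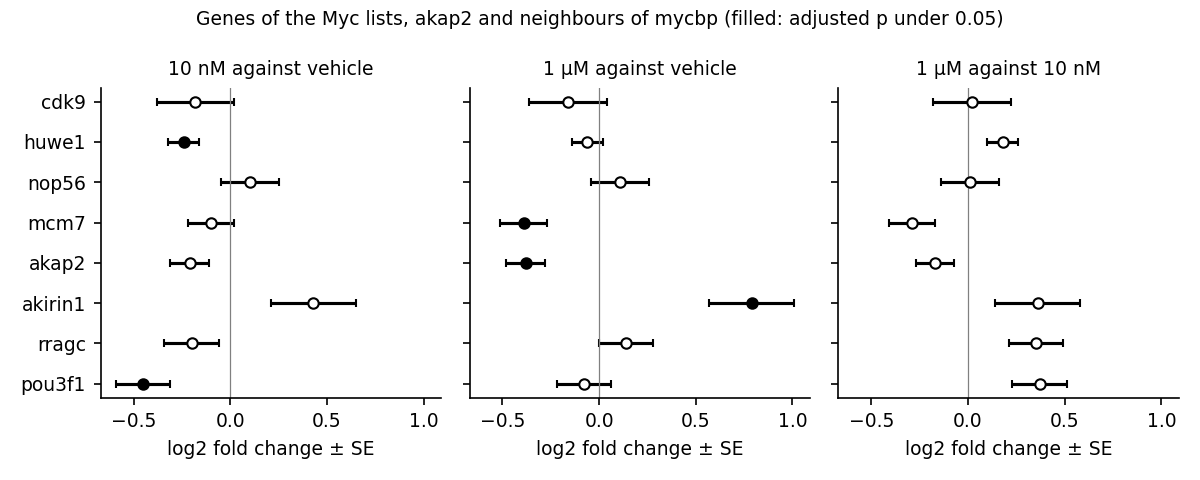
Log2 difference on the log2(FPKM + 1) scale with its SE for 4 list genes, akap2 and 3 neighbours of mycbp, for 10 nM and for 1 µM, each against vehicle, and for 1 µM against 10 nM (n = 5 libraries per group). Filled points passed an adjusted p of 0.05 in limma: huwe1 and pou3f1 at 10 nM and mcm7, akap2 and akirin1 at 1 µM, each against vehicle. Of these only akirin1 lies above 0. Over all gene models tested, 23.3%, 45.6% and 23.8% passed in the same order of comparisons.

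Likeness to each gene was measured over the 15 libraries as the root-mean-square (RMS) difference of log2(FPKM + 1) values after subtracting each gene model's mean, with 0 for identical patterns. The same measure against a pattern turned upside down gave the nearest mirror images. These distances describe shared patterns in libraries that also share their depth and dish, and no test was made of them. A gene with no variation at all would lie at 0.690 from mycl and 0.766 from mycbp.

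Of 313 named gene models, the nearest to mycl was rdh10, the retinol dehydrogenase of retinoic acid synthesis, at an RMS of 0.276. Its level was 22.9 ± 3.48 FPKM in vehicle embryos, 14.0 ± 2.13 at 10 nM and 5.36 ± 0.336 at 1 µM (SD, n = 5 each). Next came chrnd, a subunit of the muscle acetylcholine receptor (0.324), zfp36l1, whose product binds AU-rich mRNAs (0.332), tll1-like.1, related to tolloid proteases (0.359), and ldb3-like.1, related to a muscle Z-disc protein (0.391). Like mycl, each of these had its highest group mean in vehicle embryos and its lowest at 1 µM, which their choice by pattern favours. The share of the drop already present at 10 nM varied, since zfp36l1 had 11.4 ± 1.09, 7.62 ± 1.02 and 4.35 ± 0.707 FPKM by rising dose, while chrnd had 7.81 ± 1.81, 6.87 ± 0.422 and 3.30 ± 0.705 FPKM. A further 18 gene models without a name lay closer to mycl than rdh10 did.

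Among the 313 named gene models, the nearest mirror images of mycl were cpe (0.265), akr1c2 (0.279) and dnm1 (0.307). They encode a carboxypeptidase of prohormone processing, an aldo-keto reductase and a dynamin of endocytosis. The level of cpe was 0.752 ± 0.259 FPKM in vehicle embryos, 1.54 ± 0.142 at 10 nM and 3.24 ± 0.775 at 1 µM (SD, n = 5 each). These named genes all had their highest mean at 1 µM, which their choice by pattern favours. A further 14 gene models without a name lay closer to this mirror image than cpe did. The gene mycbp ranked 61 of 313 by this measure, at 0.558.

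The named gene models nearest to mycbp lay farther away than those of mycl. They were ethe1, an enzyme of mitochondrial sulfide oxidation (0.405), dpm2, a subunit of dolichol-phosphate mannose synthase (0.422), b3gnt7, a glycosyltransferase (0.451), akr1c2 (0.456) and dnm1 (0.472). The level of ethe1 was 0.550 ± 0.454 FPKM in vehicle embryos, 1.14 ± 1.73 at 10 nM and 1.95 ± 0.560 at 1 µM (SD, n = 5 each). Its SD at 10 nM exceeded its mean there, and the spread of mycbp was also wide at that dose. No comparison of ethe1 passed (limma adjusted p = 0.783 for 10 nM against vehicle, 0.0591 for 1 µM against vehicle and 0.174 for 1 µM against 10 nM). Every comparison of dpm2, b3gnt7, akr1c2 and dnm1 did pass. All of these genes were picked by pattern in these same libraries, so such calls only describe them and lend no support. The level of dpm2 was 0.766 ± 0.239, 2.03 ± 0.811 and 3.73 ± 0.553 FPKM by rising dose. A further 13 gene models without a name lay closer to mycbp than ethe1 did. Among named gene models, the nearest mirror images of mycbp were zfp36l1 (0.479), the zinc finger gene zcchc24 (0.506) and the potassium channel gene kcnj2 (0.526). The gene mycl ranked 7 of 313 there, at 0.558. Without a name, 22 gene models lay closer to this mirror image than zfp36l1 did. Of the named genes, akr1c2 and dnm1 thus stood among the nearest to mycbp and the nearest mirror images of mycl, and zfp36l1 the other way round.

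**Figure D5:**
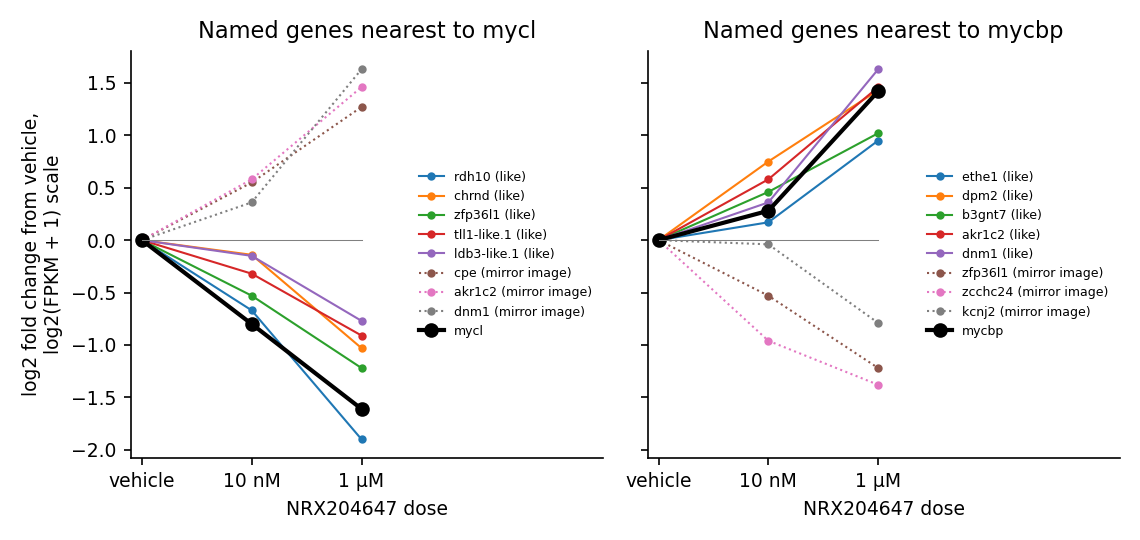
Log2 difference from vehicle on the log2(FPKM + 1) scale at 10 nM and 1 µM for mycl (left) and mycbp (right), in black. Solid lines are the 5 named genes nearest in pattern and dotted lines the 3 nearest mirror images among named genes. At 1 µM mycl stands at -1.61 and mycbp at 1.42. The pattern genes of each lie on its own side of 0 and the mirror images on the other, which their choice on these same libraries favours.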

How the data were processed

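The authors deposited a table of FPKM values, fragment counts scaled by gene length and library size, for 45099 gene models in 15 libraries. RNA was amplified and sequenced as single reads of 50 nt without strand, per the labels' protocols. Per the submitters' processing notes the tools were TopHat, Bowtie and Cufflinks, with versions, genome build and annotation not given in the sources used here. Names came from the deposited table, and 0 of its identifiers were found in the RefSeq table.

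The 13192 gene models averaging 1 FPKM or more were taken to log2(FPKM + 1). They were fitted with limma 3.58.1 (R 4.3.3) with a mean-variance trend and all 3 groups in 1 fit. Tests were two-sided with Benjamini-Hochberg adjustment over all 13192. Replicate numbers name aliquots, and the labels describe no pairing by number.

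For 99.1% of the 34147 gene models with 2 or more values above 0, all values came out as whole steps within 0.03 steps, which gave depth and read support. Up to 3000 divisors of the smallest value were tried, so gene models with few values above 0 could hardly fail. Of the 13192 tested gene models, 12922 came out as whole steps in every library. No 2 libraries held identical values.

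The members, gene lists, tests and rule for named genes were chosen with earlier results of these data known. The rule took mycl, mycbp, every tested gene of 3 lists, up to 4 called increases and 4 called decreases among Myc target genes, and the 5 nearest and 3 mirror patterns of each member. The gene nop56, not called, was named besides, after its values were seen. Alternatives varied the pseudocount, filter, scaling, fit, block and libraries. Python 3.11.15 was used for the remaining steps.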

Additional observations from a re-analysis of the deposited data

How the results depend on the processing

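Neither mycl nor mycbp changed direction in any comparison under any alternative. By more than the SD within groups, the mycl difference moved in 5 of 78 alternative values and the mycbp difference in 6 of 75, and 4 of 78 counts of calls moved by over 1.5 times. Many of these alternatives cannot move a log2 difference, so the counts overstate how stable it is. They are another filter, the block, a fit of only the groups compared and leaving out a library of the group not compared. That SD was 0.515 for mycbp, so its 0.28 for 10 nM against vehicle counted as unmoved at 0.05 and at 0.56. For 1 µM against vehicle, mycl was -1.92 with a pseudocount of 0.1, -0.97 with 5 and -1.91 by voom on recovered reads, and mycbp was 2.22, 0.59 and 2.35. For 1 µM against 10 nM, mycbp was 2.03 with a pseudocount of 0.1, 0.47 with 5 and 2.18 by voom, and mycl was -0.43 with 5. For 10 nM against vehicle, mycl was -0.54 and mycbp 0.12 with a pseudocount of 5. A larger pseudocount shrinks such values by construction.

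Leaving out each library in turn gave mycl -0.85 to -0.76 for 10 nM against vehicle, -1.68 to -1.49 for 1 µM against vehicle and -0.88 to -0.69 for 1 µM against 10 nM. It gave mycbp 0.05 to 0.56, 1.29 to 1.50 and 0.86 to 1.36. Counts of calls then ran from 2506 to 3097, 5375 to 6031 and 2572 to 3299, beside 3074, 6009 and 3136 with all libraries. With a filter at a mean of 5 FPKM, 1560, 2250 and 1047 gene models were called, of fewer tested, and with no filter 2624, 8294 and 4186, while mycbp falls below a mean of 5 FPKM and has no value under that filter. Without the libraries under 0.4 of the deepest, 673 were called for 10 nM against vehicle, with fewer samples.

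Scaling moved the balance of calls. As deposited, 55.8%, 63.5% and 67.5% of the calls were higher in the 3 comparisons, against 54.9%, 51.8% and 50.1% with median-of-ratios scaling, 44.8%, 44.7% and 47.6% with quantile normalization, and 27.7%, 39.0% and 55.1% with library totals made equal, leaving out the top gene model. This last scaling moved the median log2 difference of all gene models to -0.11, -0.09 and 0.02, beside 0.01, 0.09 and 0.08 as deposited. Under it 4267, 6603 and 3133 gene models were called, mycl was -0.95, -1.82 and -0.87, and mycbp 0.21, 1.28 and 1.07. After quantile normalization or that scaling huwe1 also passed for 1 µM against vehicle, after these or median-of-ratios scaling mcm7 passed for 1 µM against 10 nM, and akap2 passed for 1 µM against 10 nM after quantile normalization and for 10 nM against vehicle with equal totals.

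With the replicate number as a block, 2933, 5966 and 3051 gene models were called. Residuals of same-numbered libraries correlated from -0.110 to 0.114, and those of other numbers from -0.181 to 0.198, so the numbers are not taken as pairs. Under the block akirin1 passed for 10 nM against vehicle (limma adjusted p = 0.0449) and huwe1 and pou3f1 did not (0.0559 and 0.0622). The vehicle values of mycbp rest on 2 to 16 read steps, which limits their precision.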
